A study of Homo sapiens with 6 samples.

Results

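The genes described here build fatty acids, attach them to glycerol, store the product in lipid droplets and release it again. They were chosen by name as 48 genes of lipogenesis, fatty acid elongation and desaturation, glycerolipid synthesis, lipolysis and lipid droplet proteins, out of 79172 gene names in the deposited count table, and all 48 were found there. The choice was made with earlier results of these data known. RNA-seq counts were available for 3 HK1-overexpressing and 3 Control libraries, all from Huh7, a human cell line derived from a hepatocellular carcinoma. HK1 encodes hexokinase 1, which phosphorylates glucose at the start of glycolysis. The sources used here do not give how HK1 was introduced, whether the cells were a pool or a clone, or what the Control cells received. The labels do not say that replicates were separate cultures, so p-values measure only the spread between these libraries, which may be technical.

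Lipogenesis starts when citrate exported from mitochondria is cleaved to acetyl-CoA, which is carboxylated to malonyl-CoA and assembled into palmitate by fatty acid synthase. Elongases and desaturases then lengthen the chain and add double bonds, acyl-CoA synthetases activate free fatty acids, and acyltransferases, lipins and diacylglycerol acyltransferases build triglyceride. In the liver and in liver-derived cells the triglyceride is kept in droplets coated by perilipins or is exported in lipoproteins, and the transcription factors SREBP-1 and ChREBP are known regulators of many of these genes.

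Library totals ran from 19607663 to 20823072 counts in the HK1-overexpressing libraries and from 16771835 to 20071846 in the Control libraries. HK1 averaged 508.5 ± 18.0 CPM in HK1-overexpressing cells and 0.774 ± 0.114 CPM in Control cells (SD, n = 3 each), where CPM is the depth-scaled count, with the library total after TMM scaling as its base. Of 16734 genes tested, 648 (3.87%) were higher and 694 (4.15%) lower in HK1-overexpressing cells at an adjusted p below 0.05 by edgeR's quasi-likelihood test with Benjamini-Hochberg adjustment. Scaled to library totals alone, the split was 898 genes higher (5.37%) and 463 lower (2.77%). The hepatocyte and hepatoma marker list fell in 6 of its 11 genes, none was higher, and its summed level was 12698 to 13038 CPM in HK1-overexpressing libraries and 16044 to 16781 CPM in Control libraries. The part of that difference in the results below was not tested. In bulk RNA, fewer cells of a type and less RNA per cell cannot be told apart. Summed adipocyte markers were at 0.332 to 0.721 CPM in HK1-overexpressing libraries and 0.201 to 0.704 CPM in Control libraries, with ADIPOQ and LEP at 0 counts in every library. Fibroblast and stellate markers summed to 18.8 to 21.9 CPM in HK1-overexpressing libraries and 14.4 to 16.0 CPM in Control libraries. Of these 6 genes only 2 had enough counts to be tested, and they went opposite ways. COL1A2 was higher at a log2 fold change of 0.58, and the other was at -0.47 and did not pass (adjusted p = 0.218 by edgeR). Immune markers were at 3.84 to 4.58 CPM in HK1-overexpressing libraries and 3.70 to 4.22 CPM in Control libraries. Of these 6 genes 2 were tested, at log2 fold changes of -0.07 and 1.07. Neither passed (smaller adjusted p = 0.114 by edgeR), and for 1 of them the groups did not overlap in CPM. Endothelial markers were at 4.53 to 5.40 CPM in HK1-overexpressing libraries and 4.02 to 6.25 CPM in Control libraries, with CDH5 and KDR at 0 counts in every library.

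Of the 48 genes, 41 had enough counts to be tested, and 8 of these passed the test (19.5%), where 8.02% of all tested genes did. With library totals alone the same 8 passed. Higher in HK1-overexpressing cells were ACSL5, FADS3, PLIN2, LPIN1 and ELOVL7, and lower were FADS2, FADS1 and FASN. Only ACSL5 was past a 1.5-fold difference. The other 33 tested members did not pass. Within 0.2 of no change on the log2 scale lay 28 of the 41, and 11534 of all 16734 tested genes, a similar share. The median log2 fold change of the 41 was -0.04, beside 0.01 for all tested genes. Taken without sign, the median was 0.139 for the 41 and 0.123 for all tested genes. The values of the 3 HK1-overexpressing libraries lay wholly above or below those of the 3 Control libraries in CPM for 18 of the 41 members (43.9%), and for 27.8% of all tested genes. In TPM the count was 14 of 41 (34.1%), and 26.4% of all tested genes. TPM divides counts by exon length and scales every library to the same sum, without TMM. Libraries can therefore be ordered differently in TPM and in CPM. Where groups are said below to overlap or not, the scale is CPM unless TPM is named. Summed over all members, the length-scaled level was 4269 ± 61.1 TPM in HK1-overexpressing cells and 4299 ± 249 TPM in Control cells (SD, n = 3 each). Calls for ACSL5, FADS1, FADS2, FADS3 and PLIN2 held in each of 14 alternative analyses, 6 of which left out 1 library each. The count of members called higher was 3 without Control replicate 3 or without any 1 of the HK1-overexpressing replicates, and the count called lower was 5 without Control replicate 2.

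**Figure D1:**
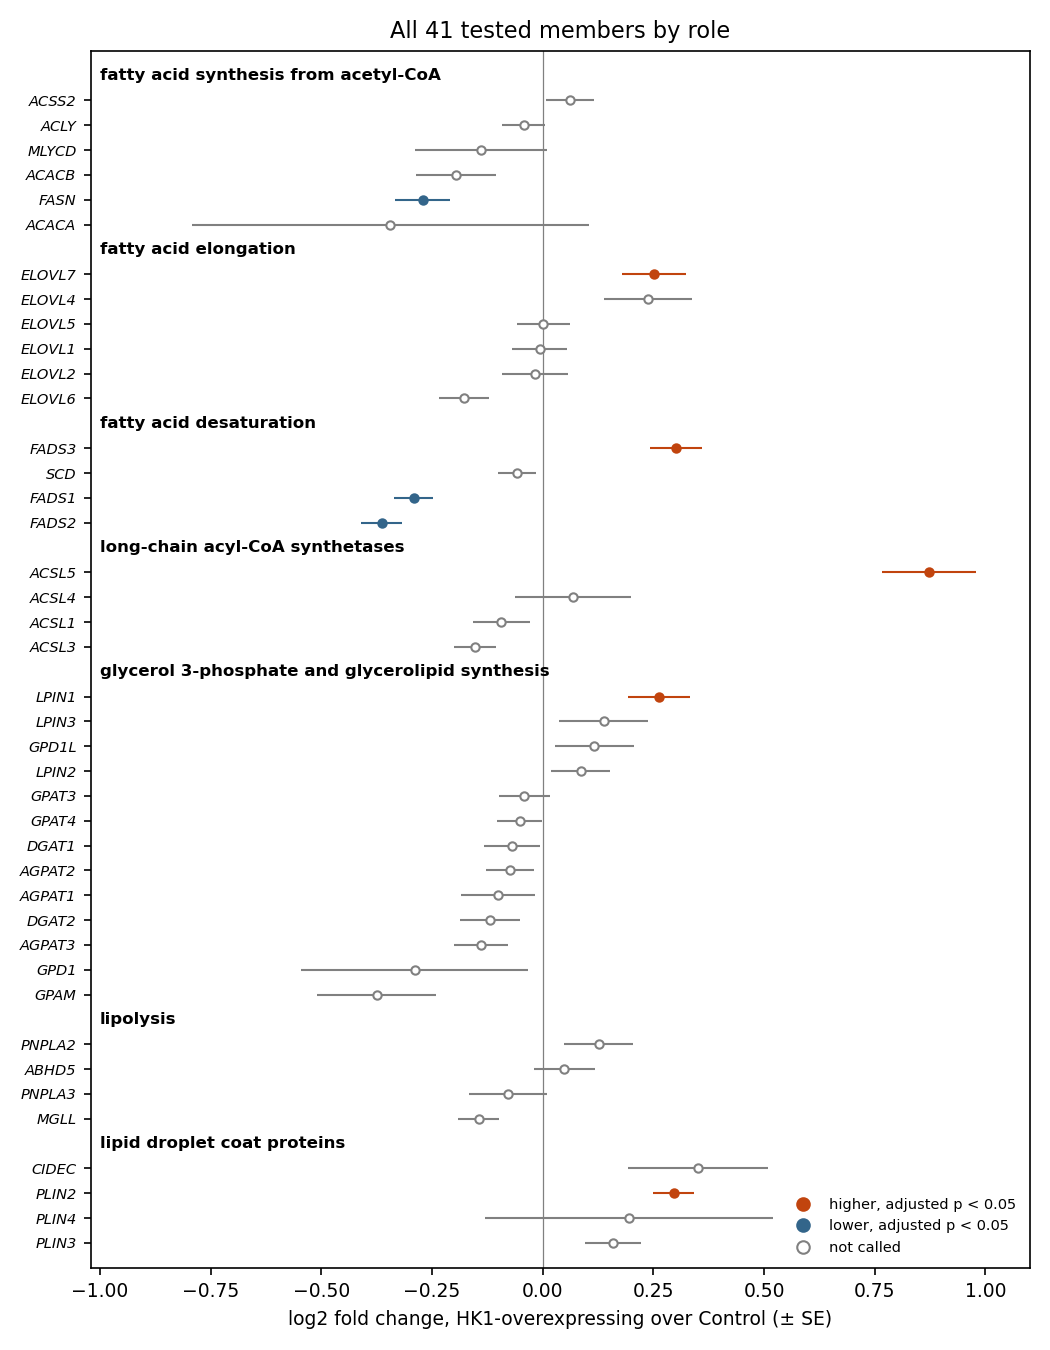
Log2 fold change of each of the 41 tested members, HK1-overexpressing over Control, from edgeR with its SE as the bar (n = 3 each), grouped by role and ordered by size within a role. ACSL5 lies alone at 0.87, FADS2 and FADS1 lie at -0.36 and -0.29 in the same group as FADS3 at 0.30, and PLIN2 at 0.30 is the called one of the 4 tested droplet coat genes.

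The fatty acid desaturases held 3 of the 8 calls. FADS1 and FADS2, which put in the double bonds on the way from the essential fatty acids to arachidonic and eicosapentaenoic acid, were both lower in HK1-overexpressing cells. Their neighbour FADS3, which is known to act on the sphingoid base of ceramides, was higher. The 3 genes lie side by side on chromosome 11 (hg38), where the deposited annotation places FADS2 at 61792980 to 61867354 on the plus strand, FADS1 at 61799627 to 61829318 on the minus strand and FADS3 at 61873519 to 61892051 on the minus strand. In RefSeq (GRCh38.p14) the FADS1 start is 800 and 599 bases from the 2 FADS2 starts that had a promoter window. It is on the opposite strand and faces them, and it is 74542 bases from the FADS3 start. The deposited FADS2 span begins at 61792980, upstream of both FADS2 starts. Other annotated FADS2 starts therefore exist, and they were neither measured nor searched. The windows from 250 bases before to 50 bases after each start are shown because these neighbours moved in opposite directions. FADS1 is at chr11:61816954-61817253 on the minus strand, FADS2 (the earlier of these 2 starts) at chr11:61815953-61816252 on the plus strand, and FADS3 at chr11:61891496-61891795 on the minus strand. Each is written 5′ to 3′ on the gene's strand, and capitals mark the CCAAT box, read as CCAAT or as its reverse complement ATTGG.
FADS1: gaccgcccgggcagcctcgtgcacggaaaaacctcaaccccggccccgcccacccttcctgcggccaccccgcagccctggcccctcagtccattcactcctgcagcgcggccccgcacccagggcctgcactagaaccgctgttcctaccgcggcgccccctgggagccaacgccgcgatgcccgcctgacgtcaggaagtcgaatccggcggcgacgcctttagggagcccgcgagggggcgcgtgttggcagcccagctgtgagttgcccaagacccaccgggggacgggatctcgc
FADS2: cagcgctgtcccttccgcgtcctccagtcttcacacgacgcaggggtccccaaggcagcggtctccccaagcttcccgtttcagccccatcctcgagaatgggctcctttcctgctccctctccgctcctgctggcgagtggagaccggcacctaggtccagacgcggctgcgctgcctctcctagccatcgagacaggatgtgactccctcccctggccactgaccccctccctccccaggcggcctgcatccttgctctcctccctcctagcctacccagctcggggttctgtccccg
FADS3: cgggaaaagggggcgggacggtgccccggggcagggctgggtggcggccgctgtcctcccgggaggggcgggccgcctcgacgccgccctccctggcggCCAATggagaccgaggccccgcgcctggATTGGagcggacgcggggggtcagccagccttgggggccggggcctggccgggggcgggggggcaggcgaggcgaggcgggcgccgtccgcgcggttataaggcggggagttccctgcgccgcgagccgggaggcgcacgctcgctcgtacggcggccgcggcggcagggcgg
The FADS3 window holds a CCAAT box in each orientation, and those letters are in neither of the other windows. CCAAT, on either strand, occurs in 35.7% of 27305 promoter windows, the first of each gene name, so its presence is a description of these bases.

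FADS2 had 978, 995 and 1022 CPM in the HK1-overexpressing libraries, against 1266, 1349.8 and 1239 CPM in the Control libraries. All HK1-overexpressing libraries were below all Control libraries. The log2 fold change was -0.36 (SE 0.0467, adjusted p = 0.000236 by edgeR with Benjamini-Hochberg adjustment). For FADS1 the levels were 469.8, 452 and 460.3 CPM in HK1-overexpressing cells, against 555, 575 and 562 CPM in Control cells. The groups again did not overlap, and libraries within a group lay close together. Its log2 fold change was -0.29 (SE 0.0441, adjusted p = 0.000869 by edgeR). FADS3 was at 156, 155 and 156 CPM in HK1-overexpressing cells, against 117, 136 and 126 CPM in Control cells. The HK1-overexpressing libraries were nearly equal and above each Control library, at a log2 fold change of 0.30 (SE 0.0579, adjusted p = 0.00507 by edgeR). FADS1 and FADS2 share exon bases on opposite strands, 4.79% of FADS1 and 4.64% of FADS2, and the counting did not use strand, so fragments there could not be assigned to one of them.

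Stearoyl-CoA desaturase, SCD, which makes oleate from stearate, had the highest length-scaled level of all members at a mean of 1224 TPM. Its levels were 2107, 2098 and 2094 CPM in HK1-overexpressing cells, against 2271, 2161 and 2124 CPM in Control cells. Although the groups did not overlap in CPM, they did in TPM, and the log2 fold change was -0.06 and did not pass (adjusted p = 0.484 by edgeR). The brain-enriched desaturase SCD5 had too few reads to be tested, with 8, 3 and 3 counts in HK1-overexpressing libraries and 3, 2 and 0 counts in Control libraries.

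Per length, FADS2 was the most abundant of the FADS genes in both groups. The FADS sum was 500.5 ± 9.28 TPM in HK1-overexpressing cells and 580.0 ± 18.9 TPM in Control cells (SD, n = 3 each). FADS3 made up 14.9% to 15.1% of that sum in the HK1-overexpressing libraries and 9.64% to 10.5% in the Control libraries. The FADS2 share was 56.7% to 58.1% in HK1-overexpressing libraries and 61.0% to 62.2% in Control libraries, and the groups did not overlap. The FADS1 share did overlap, at 27.0% to 28.1% in HK1-overexpressing libraries and 27.3% to 28.6% in Control libraries.

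**Figure D2:**
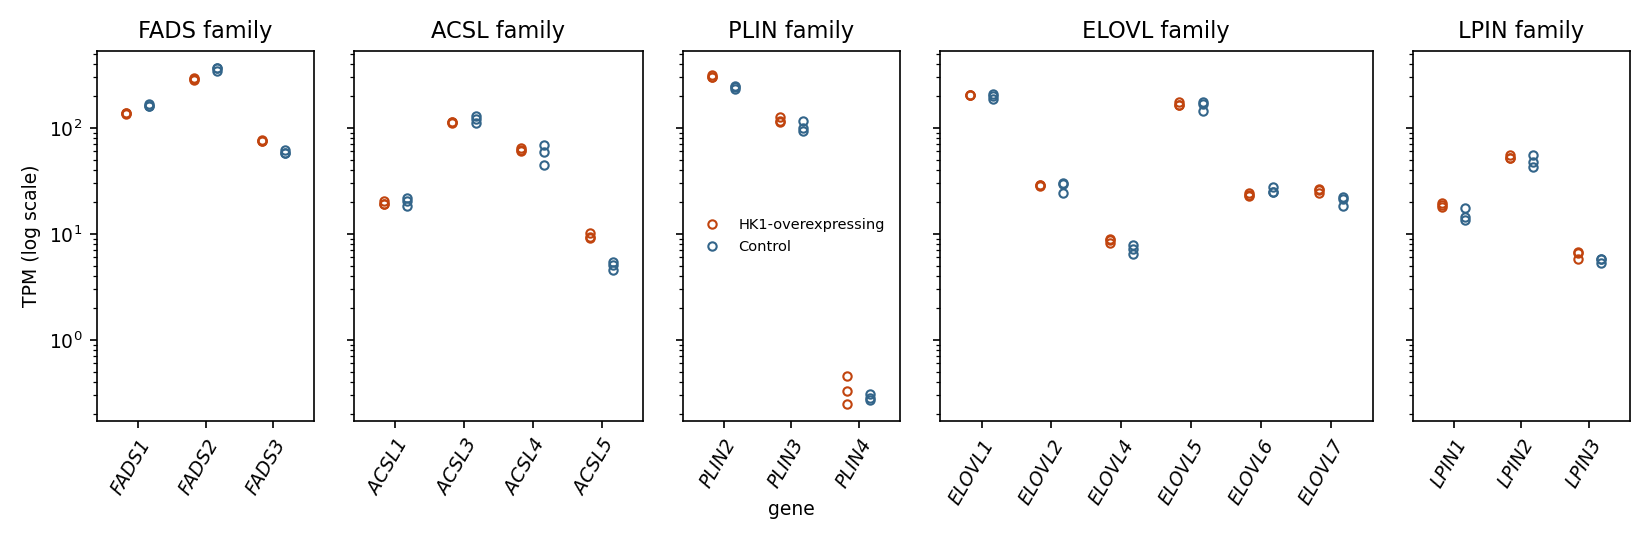
Length-scaled level (TPM, log axis) of each FADS, ACSL, PLIN, ELOVL and LPIN member in every library, with HK1-overexpressing libraries left of Control libraries and 1 point per library. FADS2 stays above FADS1 and FADS3 in both groups, ACSL5 is the lowest of its family in both groups, and PLIN2 and PLIN3 are far above PLIN4. PLIN1 and PLIN5, which failed the test's count filter, are not drawn.

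Among the long-chain acyl-CoA synthetases, which turn free fatty acids into acyl-CoA for storage or oxidation, 1 of 4 was higher and none was lower. ACSL5, an isoform of the endoplasmic reticulum and the outer mitochondrial membrane, had the largest log2 difference of any called member. It had 13.8, 12.5 and 12.5 CPM in the HK1-overexpressing libraries, against 6.13, 7.86 and 7.28 CPM in the Control libraries. These levels came from 274, 260 and 264 counts in HK1-overexpressing cells and 122, 134 and 120 counts in Control cells. No HK1-overexpressing library came near the Control range. The fold was 1.83, a log2 fold change of 0.87 (SE 0.106, adjusted p = 0.000149 by edgeR). ACSL5 lies on chromosome 10 at 112374116 to 112428379 on the plus strand (hg38), and 8.85% of its exon bases are shared with other genes. Its RefSeq promoter window (GRCh38.p14, chr10:112375018-112375317, plus strand, the first of 2 in the table) is shown as that of the gene with the largest change, and it holds none of the 4 motifs searched, so it has no capitals.
ACSL5: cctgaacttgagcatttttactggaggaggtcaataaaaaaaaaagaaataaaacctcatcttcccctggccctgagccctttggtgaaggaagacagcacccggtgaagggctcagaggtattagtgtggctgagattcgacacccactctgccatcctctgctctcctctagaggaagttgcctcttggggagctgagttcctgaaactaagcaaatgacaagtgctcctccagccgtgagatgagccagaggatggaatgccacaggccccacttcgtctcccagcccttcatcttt
ACSL3, which is found on forming lipid droplets, was the most abundant isoform per length at a mean of 117 TPM. It had 548, 533 and 523 CPM in HK1-overexpressing cells, against 610.1, 565 and 607 CPM in Control cells. Its groups did not overlap in CPM but did in TPM, where Control replicate 2, at 112 TPM, lay inside the HK1-overexpressing range of 111 to 115 TPM. The log2 fold change of -0.15 did not pass (adjusted p = 0.0648 by edgeR). It passed with DESeq2 (adjusted p = 0.0461), with limma-voom quality weights (0.00815) and without Control replicate 2 (0.00448), and over all 14 alternatives its adjusted p ranged from 0.00448 to 0.270. ACSL1 and ACSL4 had log2 fold changes of -0.09 and 0.07, neither of which passed.

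In length-scaled terms ACSL5 remained the smallest of the 4 synthetases. Its share of the ACSL sum was 4.56% to 4.85% in HK1-overexpressing libraries and 2.03% to 3.02% in Control libraries. The sum itself was 203.7 ± 3.55 TPM in HK1-overexpressing cells and 203.9 ± 23.01 TPM in Control cells (SD, n = 3 each).

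The lipid droplet coat list held 7 genes, of which 4 were tested, 1 was higher and none was lower. PLIN2, the main perilipin of liver cells and a protein that is stable when bound to droplets, was at 501, 497 and 509.6 CPM in HK1-overexpressing cells, against 393, 411 and 424 CPM in Control cells. Every HK1-overexpressing library was above every Control library. The log2 fold change was 0.30, or 1.23-fold (SE 0.0463, adjusted p = 0.00113 by edgeR). PLIN2 lies on chromosome 9 at 19108375 to 19149290 on the minus strand (hg38). Its RefSeq promoter window (GRCh38.p14, chr9:19127443-19127742, minus strand) is shown because it is 1 of the 3 windows among tested members with the E-box CACGTG, the core letters of sites bound by USF, MYC and ChREBP, which capitals mark.
PLIN2: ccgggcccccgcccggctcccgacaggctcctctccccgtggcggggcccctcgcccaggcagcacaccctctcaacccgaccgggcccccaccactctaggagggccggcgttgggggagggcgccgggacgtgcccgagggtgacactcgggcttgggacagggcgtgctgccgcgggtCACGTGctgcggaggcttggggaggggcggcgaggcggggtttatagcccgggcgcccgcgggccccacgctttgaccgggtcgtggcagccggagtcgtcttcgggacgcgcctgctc
CACGTG, which reads the same on both strands, occurs in 7.43% of the 27305 first windows. The other tested members with it were ELOVL4 and ELOVL5, neither of which passed the test.

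PLIN3, a perilipin that moves between the cytosol and nascent droplets, had 104, 104 and 112 CPM in HK1-overexpressing cells, against 103, 95.7 and 87.4 CPM in Control cells. In CPM the lowest HK1-overexpressing library was just above the highest Control library, in TPM Control replicate 1 was above 2 of the HK1-overexpressing libraries, and the log2 fold change of 0.16 did not pass (adjusted p = 0.157 by edgeR). It passed without Control replicate 1 (adjusted p = 0.0153) and with limma-voom quality weights (0.0328), in a range of 0.0153 to 0.459 over the alternatives, and 18.3% of its exon bases are shared with other genes. CIDEC, which joins droplets into larger ones, and PLIN4 had log2 fold changes of 0.35 and 0.19 at means of 5.22 and 0.314 TPM, and neither passed. The CIDEC groups did not overlap in CPM or in TPM, at 5.74, 5.61 and 6.44 TPM in HK1-overexpressing libraries and 4.82, 3.76 and 4.94 TPM in Control libraries. Those of PLIN4 overlapped on both scales. Over the alternatives the log2 fold change of PLIN4 ran from -0.06 to 0.39. The adipocyte perilipin PLIN1 had only 9, 7 and 5 counts in HK1-overexpressing libraries and 13, 3 and 2 counts in Control libraries. PLIN5, a perilipin of oxidative tissue, had counts only in Control replicate 2, where there were 3. CIDEB, a droplet protein tied to lipoprotein assembly in liver, had 2 counts in HK1-overexpressing replicate 3 and none elsewhere, and all of its exon bases are shared with other genes, so its count is no measure of its level.

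The 5 PLIN genes together summed to 424.5 ± 11.2 TPM in HK1-overexpressing cells and 343.9 ± 13.2 TPM in Control cells (SD, n = 3 each). PLIN2 made up 71.3% to 72.4% of this sum in HK1-overexpressing libraries and 67.4% to 72.5% in Control libraries, so that its share overlapped between the groups although its level did not.

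In the synthesis of fatty acids from acetyl-CoA, 1 of 6 tested genes was lower and none was higher. FASN, fatty acid synthase, on chromosome 17 at 82078338 to 82098294 (hg38, minus strand), had 793, 846 and 889 CPM in the HK1-overexpressing libraries, against 1092, 1036 and 923 CPM in the Control libraries. HK1-overexpressing replicate 3 came closest to the Control libraries, of which replicate 3 was the lowest, and the groups did not overlap. In TPM that pair was at 292 in HK1-overexpressing replicate 3 and 287 in Control replicate 3, so that the groups did overlap. The log2 fold change was -0.27 (SE 0.0623, adjusted p = 0.0172 by edgeR). It did not pass without Control replicate 2 (adjusted p = 0.121) or without HK1-overexpressing replicate 1 (0.126) or 2 (0.0800), in a range of 4.17e-05 to 0.126 over the 14 alternatives.

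ACLY, ATP citrate lyase, which supplies cytosolic acetyl-CoA from citrate, was the most abundant gene of this list per length at 328 TPM. Its levels were 556, 556 and 575 CPM in HK1-overexpressing cells, against 614, 564 and 561 CPM in Control cells. The groups overlapped, and the log2 fold change was -0.04 (adjusted p = 0.662 by edgeR), a sign that turned without Control replicate 1. The other tested genes ran from a log2 fold change of -0.34 for ACACA to 0.06 for ACSS2, with ACACB and MLYCD between them. The ACSS2 groups overlapped in CPM but not in TPM, where the HK1-overexpressing libraries were higher. ACACA, the acetyl-CoA carboxylase of lipogenesis, was measured poorly. It had 5.34, 6.54 and 12.2 CPM in HK1-overexpressing cells, against 8.95, 14.5 and 7.22 CPM in Control cells, with an SE of 0.448. Its exons also lie on an alternate sequence, where fragments that map to both places may have been lost, so the mean of 2.09 TPM is not evidence of low expression. THRSP, a lipogenic regulator of liver, had 0 counts in every library.

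The elongases, which add carbon units to long-chain acyl-CoA, gave 1 higher gene of 6 and none lower. ELOVL7, an elongase of long-chain acyl-CoA on chromosome 5 at 60751791 to 60844274 (hg38, minus strand), had 38.7, 35.1 and 38.0 CPM in HK1-overexpressing cells, against 32.1, 28.9 and 32.9 CPM in Control cells. The groups did not overlap, and the log2 fold change was 0.25 (SE 0.0719, adjusted p = 0.0456 by edgeR). This call was the least secure of the 8, kept in 5 of 14 alternatives with an adjusted p of 0.0120 to 0.183. It was lost with DESeq2 (0.0854), limma-voom (0.0573), its quality weights (0.0665) and the replicate block (0.0518), and without Control replicate 2 (0.0540) or 3 (0.0768) or HK1-overexpressing replicate 1 (0.183), 2 (0.0860) or 3 (0.18).

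ELOVL1, which makes saturated very long chains, was the most abundant elongase per length at 199.6 TPM. It had 168, 166 and 166 CPM in HK1-overexpressing cells, against 151, 181 and 171 CPM in Control cells. The HK1-overexpressing libraries fell inside the Control range, and the log2 fold change of -0.01 had an adjusted p of 0.962 by edgeR, with a sign that turned under some alternatives. ELOVL6, which lengthens palmitate, and ELOVL4, which serves very long chains, had groups that did not overlap and log2 fold changes of -0.18 and 0.24, with adjusted p = 0.0721 and 0.177 by edgeR. Without Control replicate 2 the split of the elongases turned round, with ELOVL6 lower (adjusted p = 0.0365, in a range of 0.0365 to 0.294 over the alternatives) and none higher. The values of ELOVL2 and ELOVL5 were -0.02 and 0.00.

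**Figure D3:**
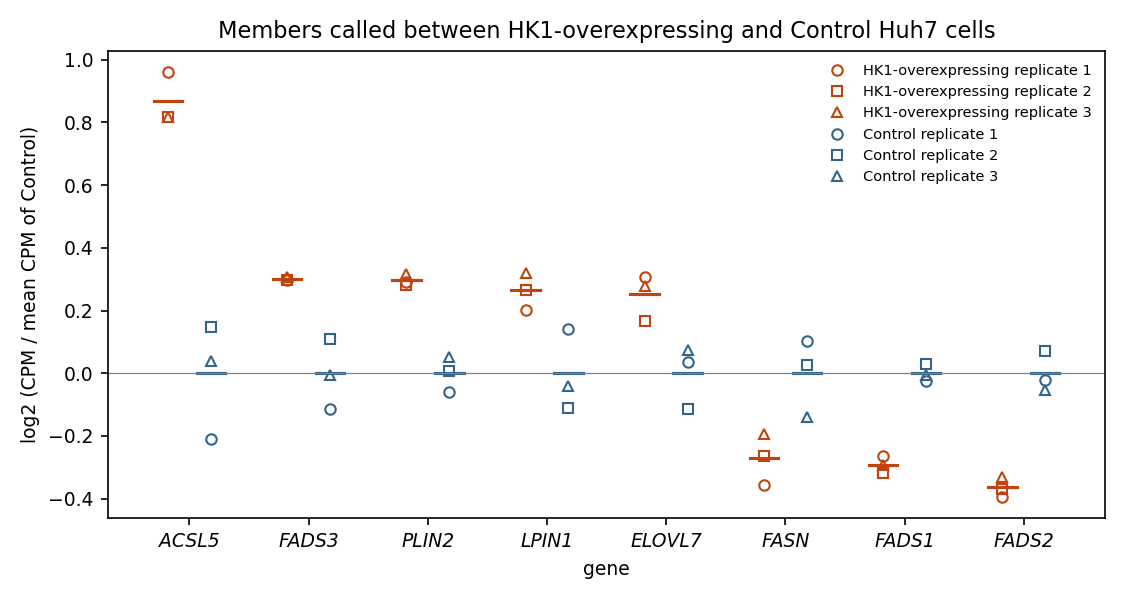
Log2 of each library's CPM over the Control mean for the 8 called members, with the 3 HK1-overexpressing libraries left of the 3 Control libraries, a marker for each replicate number and a bar at each group's mean. No gene has overlapping groups, ACSL5 is the only one with HK1-overexpressing libraries above 0.8, and the groups come closest in FASN, LPIN1 and ELOVL7.

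Glycerol 3-phosphate and glycerolipid synthesis was the largest list, with 13 tested genes, of which 1 was higher and none was lower. LPIN1, a phosphatidate phosphatase that makes diacylglycerol and also acts as a nuclear coactivator, lies on chromosome 2 at 11677595 to 11827409 on the plus strand (hg38). It had 69.8, 73.0 and 75.7 CPM in HK1-overexpressing cells, against 66.9, 56.1 and 58.9 CPM in Control cells. Control replicate 1 lay just below the lowest HK1-overexpressing library. Its log2 fold change was 0.26 (SE 0.0690, adjusted p = 0.0309 by edgeR). It did not pass without Control replicate 3 (adjusted p = 0.132) or without HK1-overexpressing replicate 1 (0.0670), 2 (0.130) or 3 (0.159), and its range over the alternatives was 0.000804 to 0.159. LPIN2 and LPIN3, its paralogues with the same enzyme activity, had log2 fold changes of 0.09 and 0.14 that did not pass. LPIN2 was the most abundant lipin per length, at 67.2% to 68.6% of the lipin sum in HK1-overexpressing libraries and 68.7% to 70.7% in Control libraries.

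AGPAT2, which acylates lysophosphatidate, led this list in length-scaled level at 312 TPM. It had 183, 186 and 189 CPM in HK1-overexpressing cells, against 198, 206 and 181 CPM in Control cells. The groups overlapped at a log2 fold change of -0.07 (adjusted p = 0.480 by edgeR). The enzymes of the last step, DGAT1 and DGAT2, had log2 fold changes of -0.07 and -0.12, and neither passed. GPAM, the mitochondrial glycerol-3-phosphate acyltransferase, is named after its values were seen, since it had the lowest log2 fold change of the 41 at -0.38 (SE 0.133, adjusted p = 0.133 by edgeR). It had 23.3, 22.2 and 27.0 CPM in HK1-overexpressing cells, against 35.9, 24.9 and 33.1 CPM in Control cells, and Control replicate 2 lay inside the HK1-overexpressing range. GPAM was called lower in 5 of the 14 alternatives, 1 of them without Control replicate 2, with an adjusted p from 0.000258 to 0.332. AGPAT1 was counted on 6 alternate sequences as well as its own locus and shares 41.2% of its exon bases, so its log2 fold change of -0.10 may miss fragments.

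No lipolysis gene passed the test in either direction among 4 tested. MGLL, monoglyceride lipase, which frees the last fatty acid from glycerol, was the most abundant per length at 85.4 TPM. Its levels were 301, 306 and 312 CPM in HK1-overexpressing cells, against 342, 348 and 325 CPM in Control cells. The groups did not overlap in CPM but did in TPM, at a log2 fold change of -0.14 (adjusted p = 0.0773 by edgeR). PNPLA2, the adipose triglyceride lipase, its activator ABHD5, and PNPLA3, a droplet lipase of liver, had log2 fold changes of 0.13, 0.05 and -0.08. The groups of PNPLA2 and ABHD5 overlapped in CPM but not in TPM, where the HK1-overexpressing libraries were higher. Those of PNPLA3 overlapped on both scales. Hormone-sensitive lipase, LIPE, had 1, 1 and 0 counts in HK1-overexpressing libraries and 1, 2 and 0 counts in Control libraries. G0S2, an inhibitor of PNPLA2, had 0 counts in every library. Since 55.6% of its exon bases are shared with another gene, this 0 rests mainly on the bases that are not shared and is a limited measure of its level.

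**Figure D4:**
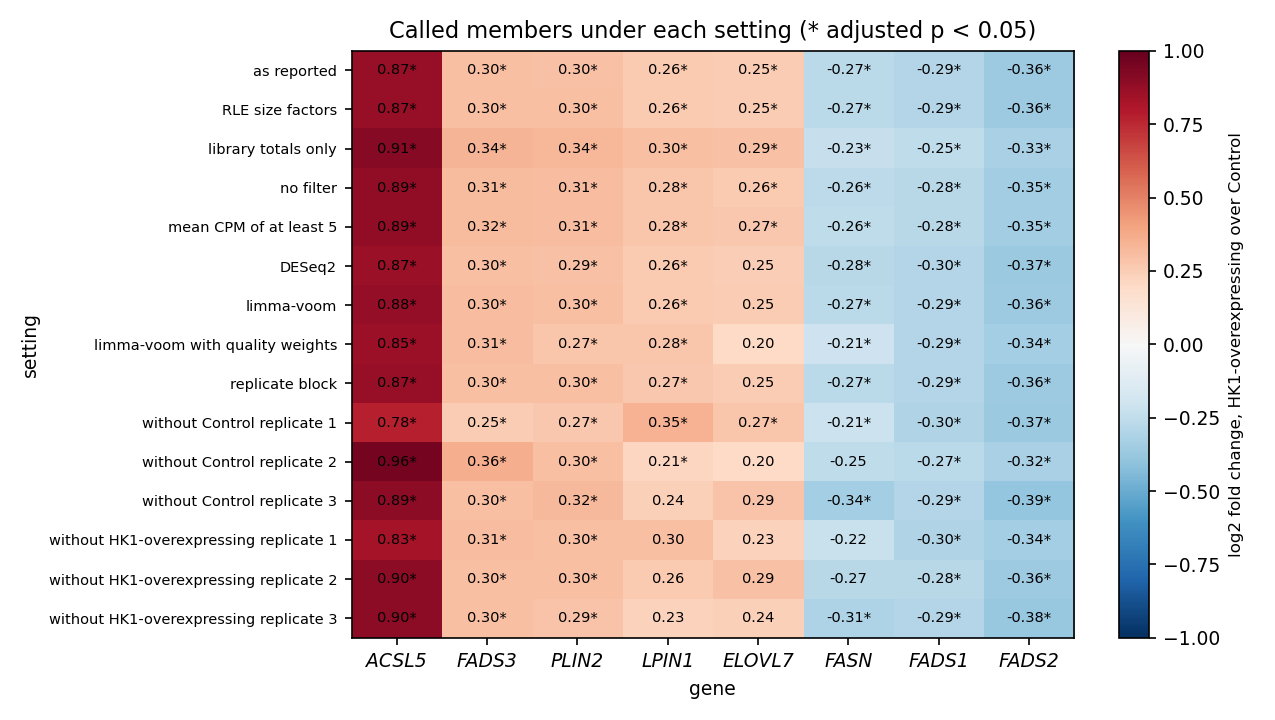
Log2 fold change of the 8 called members, HK1-overexpressing over Control, as reported and under each of 14 alternatives, with a star where the adjusted p was below 0.05. The columns of ACSL5, FADS3, PLIN2, FADS1 and FADS2 carry a star in every row, those of LPIN1, ELOVL7 and FASN do not, and no column changes colour.

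Outside the 48 genes, 6 lists of pathway neighbours held 89 genes, of which 74 were tested, 6 were higher and 5 were lower, where 3.87% of all tested genes were higher and 4.15% lower. Each list had 1 to 3 calls. Among 20 genes of transcriptional control, none was higher and 3 were lower. That split depended on the scaling, since with library totals only 2 were higher, INSIG2 (adjusted p = 0.0291) and PPARG (0.0342), and 2 lower. INSIG2 was also higher without a filter (0.0412) and with the filter at a mean of 5 CPM (0.0379), and PPARG without Control replicate 2 (0.0247), where 5 genes of the list were lower. The count lower was 5 with limma-voom quality weights, 1 without Control replicate 3, and 0 without HK1-overexpressing replicate 1 or 2. SREBF1, which encodes SREBP-1, had 73.7, 74.7 and 82.6 CPM in HK1-overexpressing cells, against 94.9, 96.8 and 88.5 CPM in Control cells. All HK1-overexpressing libraries were below all Control libraries, at a log2 fold change of -0.28 (SE 0.0614, adjusted p = 0.0118 by edgeR). MLXIPL, which encodes the glucose-responsive factor ChREBP, had 19.6, 19.8 and 19.4 CPM in HK1-overexpressing cells, against 22.7, 25.0 and 25.1 CPM in Control cells. Its groups did not overlap either, at a log2 fold change of -0.31 (SE 0.0737, adjusted p = 0.0192 by edgeR). SCAP, which escorts SREBP to the Golgi, was lower at a log2 fold change of -0.22 (adjusted p = 0.0278 by edgeR). SREBF1 did not pass without HK1-overexpressing replicate 1 (adjusted p = 0.102) or 2 (0.0961), and MLXIPL did not without Control replicate 3 (0.0818) or HK1-overexpressing replicate 1 (0.0964), 2 (0.0891) or 3 (0.101). SCAP did not pass with library totals only (0.0671), with the replicate block (0.0549), without Control replicate 3 (0.0524) or without HK1-overexpressing replicate 1 (0.18) or 2 (0.169). SREBF2, whose product mainly drives cholesterol synthesis, had a log2 fold change of -0.09 that did not pass.

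Of 13 genes that supply citrate and NADPH or carry AMPK control, ME1 alone passed. This malic enzyme, a source of NADPH, had 358, 355 and 348 CPM in HK1-overexpressing cells, against 421, 392 and 419.8 CPM in Control cells. The groups did not overlap, at a log2 fold change of -0.22 (SE 0.0473, adjusted p = 0.0114 by edgeR). It did not pass without Control replicate 3 (adjusted p = 0.0601) or HK1-overexpressing replicate 1 (0.0657), 2 (0.0828) or 3 (0.0887). Without Control replicate 2 the AMPK subunit gene PRKAA2 was lower as well (adjusted p = 0.0483).

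Fatty acid uptake and binding gave 1 higher and 1 lower gene of 9 tested, both of them cytosolic fatty acid binding proteins. FABP1, the liver form, had 25.8, 23.3 and 24.5 CPM in HK1-overexpressing cells, against 39.4, 49.7 and 42.6 CPM in Control cells. FABP3, the heart and muscle form, had 90.9, 90.6 and 91.2 CPM in HK1-overexpressing cells, against 58.5, 72.7 and 70.3 CPM in Control cells. Neither gene's groups overlapped, and their log2 fold changes were -0.84 (SE 0.0852) and 0.44 (SE 0.0723), with adjusted p = 2.94e-05 and 0.00177 by edgeR. Both calls held in all 14 alternatives. Per length FABP3 was above FABP1 in both groups, at 197.9 and 31.0 TPM in HK1-overexpressing cells and 141 and 53.4 TPM in Control cells.

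Of 15 other droplet and neutral lipid hydrolase genes, 3 were higher and none was lower. LIPA, the lysosomal acid lipase, had 114, 106 and 107 CPM in HK1-overexpressing cells, against 82.2, 75.0 and 87.2 CPM in Control cells. Its groups did not overlap, at a log2 fold change of 0.42 (SE 0.0622, adjusted p = 0.000720 by edgeR). AADAC, a lipase of the liver endoplasmic reticulum, had 28.6, 26.2 and 24.5 CPM in HK1-overexpressing cells, against 18.6, 17.9 and 20.9 CPM in Control cells. It too had groups apart, at a log2 fold change of 0.46 (SE 0.0846, adjusted p = 0.00357 by edgeR), and both calls held in all 14 alternatives. LDAF1, a partner of seipin in droplet formation, was higher at a log2 fold change of 0.57 (adjusted p = 0.0399 by edgeR), at 3.57 TPM and in 6 of the 13 alternatives in which it could be tested, with an adjusted p of 0.0224 to 0.207. CES1 was called lower in 4 alternatives and FAF2 in 1, so that up to 2 genes of the list were lower, with limma-voom quality weights. In the remaining lists 1 of 8 further elongation, desaturase and synthetase genes was higher, HACD1, a dehydratase of the elongation cycle, at 0.36 (adjusted p = 0.0178 by edgeR). HACD1 did not pass without Control replicate 3 (0.0644) or HK1-overexpressing replicate 1 (0.116) or 2 (0.0552). Among 9 further acyltransferases MOGAT3, which acylates monoacylglycerol, was higher at 0.33, with an adjusted p by edgeR just under the threshold, and passed in 4 of 14 alternatives.

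Promoter windows were found for 40 of the 48 genes and for 7 of the 8 called members. The called member without a window was FASN, so its promoter was not searched. Only the first window of each gene name was searched. FADS2 and ACSL5 have 2 windows each and LPIN1 has 3, so their further windows were not covered. A sterol regulatory element written TCACNCCAC, searched on both strands, occurred in 1 of 33 tested members with a window, PNPLA2, and in 1.15% of the 27305 first windows. Among the 7 called members with a window, 0 held it, 1 held CCAAT (FADS3) and 1 held CACGTG (PLIN2). CCAAT was in 15 of the 33 tested members' windows and CACGTG in 3. A PPAR response element, written as AGGNCA, any base and AGGNCA again, was in none of the 33 and in 0.308% of the first windows. None of these motifs contains another, and a missing match says only that these letters are not in this window.

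Replicates varied less in the HK1-overexpressing group. The median coefficient of variation of the 41 tested members was 3.78% in HK1-overexpressing cells and 6.47% in Control cells, and it was larger in Control cells for 30 of the 41. Over all tested genes the medians were 5.43% in HK1-overexpressing cells and 9.14% in Control cells, so the difference in spread was shared by the whole table.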

How the data were processed

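The deposited table gives counts, whole numbers of fragments, which the authors made with featureCounts 1.5.3 in paired mode on the exons of each gene name in GENCODE release 47, per the file headers. No strand option is recorded there. Trim Galore and Subread are named with build hg38, per the submitters' processing notes. The 48 members, the pathway and marker lists and the tests were chosen with earlier results of these data known. Genes were kept by filterByExpr, scaled by TMM and tested with edgeR 4.0.16 (R 4.3.3), by a two-sided robust quasi-likelihood test on group alone, with p-values adjusted after Benjamini and Hochberg and called below 0.05. Fold changes put HK1-overexpressing over Control. Each SE is the size of edgeR's coefficient without shrinkage over the root of F. TPM uses raw counts and merged exon length from the table, without TMM factors. Promoter sequences are RefSeq's, matched by symbol. Named are all called members, the uncalled member of highest TPM in each role, every untested member with its counts, up to 4 called genes per pathway list, SREBF1 and MLXIPL. Values of other genes, among them ACACA, ELOVL4, ELOVL6, CIDEC, PLIN4, AGPAT1 and GPAM, are given outside this rule and were picked after they were seen. Pairs of libraries differed by more than sampling noise, with chi-square per degree of freedom of 4.60 or more. Alternatives were scaling by RLE or by library totals only, no filter, a filter at a mean of 5 CPM, DESeq2 1.42.0, limma-voom (limma 3.58.1) with and without quality weights, a replicate block, and leaving out each library.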

Additional observations from a re-analysis of the deposited data

How the results depend on the processing

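Results are counts of calls and the log2 fold changes of 27 named genes under 14 alternatives. Of the gene values, 315 kept sign and side of the threshold, 51 lost the call, 5 gained one and 6 changed sign. Leaving out 1 library gave 286 to 1172 genes higher and 250 to 1085 lower among all tested, and 3 to 6 members higher and 2 to 5 lower. With DESeq2 5 members were lower. With limma-voom quality weights 5 members and 1048 of all genes were lower. The log2 fold change of ACLY ran from -0.066 to 0.0050 when 1 library was left out, with the positive value without Control replicate 1. That of ELOVL1 ran from -0.074 to 0.058, and was above 0 without Control replicate 2 (0.058) or 3 (0.0055). It was also above 0 with library totals only (0.032), without a filter (0.0066) and with the filter at a mean of 5 CPM (0.0068). The cause was not tested. Library totals shifted the median of all genes to 0.04. Deviations from the group mean correlated at 0.007, 0.058 and -0.030 between same-numbered libraries, and at -0.052 to 0.050 between differently numbered ones. No shared replicate effect was seen, but this cannot show whether same-numbered libraries were prepared together, which the labels do not say. With the replicate block 4 members were higher, 4 lower, and 1074 genes passed, 563 higher and 511 lower. ELOVL7 (adjusted p = 0.0518) and SCAP (0.0549) did not pass under the block, nor did MOGAT3 (0.0771) and LDAF1 (0.0604). Low counts limit PLIN1, PLIN4, PLIN5, LIPE, SCD5 and CIDEB most.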

Other observations

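CES1, a carboxylesterase of liver endoplasmic reticulum that hydrolyses stored neutral lipid, is named after its values were seen, since it had the lowest log2 fold change of the pathway genes. It was at 0, 0.289 and 0.332 CPM in the HK1-overexpressing libraries, against 0.553, 3.28 and 2.00 CPM in the Control libraries, from 0, 6 and 7 counts in HK1-overexpressing cells and 11, 56 and 33 counts in Control cells. The groups did not overlap, and the Control libraries differed widely among themselves. Its log2 fold change was -3.14 (SE 0.975), which did not pass (adjusted p = 0.128 by edgeR), and over 12 alternatives the adjusted p ran from 2.8e-05 to 0.323. Its exons also lie on 1 alternate sequence, where fragments may have been lost. Also picked after their values were seen, PPARG, which drives storage genes, and INSIG2, which holds SREBP in the endoplasmic reticulum, had groups that did not overlap and log2 fold changes of 0.17 and 0.27, with adjusted p = 0.0826 and 0.0550 by edgeR. Each was called higher under some alternatives, 2 of 14 for PPARG and 3 of 14 for INSIG2.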
